A study of Mus with 2 samples.

Results

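The genes described here encode interferon receptor chains, a STAT and interferon regulatory factors (IRFs), and they were chosen by name. They are Ifnar1, Ifnar2, Ifngr1, Stat2, Irf1, Irf2, Irf7, Irf8 and Irf9, 9 of the 32285 genes in the deposited matrices. All 9 were detected in both libraries. The study profiled mouse bone marrow by droplet single-cell RNA sequencing and compared running mice with ground mice, with 1 library per group. The labels give the tissue as bone marrow and the source as hindlimb. Strain, sex, age, the running protocol and the number of mice behind each library are not given in the sources used here, and nothing in the labels marks an allele or drug. With 1 library per group no test between groups was possible: every ratio below is running over ground, every interval covers counting error only at 95%, and differences between mice, between dissections and between library preparations cannot be told apart from differences between groups.

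Type I interferons bind a receptor made of IFNAR1 and IFNAR2, and interferon gamma binds a receptor whose ligand-binding chain is IFNGR1. Both receptors signal through Janus kinases. The type I receptor acts mainly through ISGF3, a complex that contains STAT2 and IRF9 and turns on antiviral genes, including Irf7, whose product amplifies type I interferon production. IRF1 activates many genes induced by interferon gamma, IRF2 can act against IRF1 at shared sites, and IRF8 is a lineage factor of monocytes, dendritic cells and B cells in blood formation.

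The running library held 9473 cell barcodes and 79990530 unique molecular identifiers (UMIs, each counting 1 captured transcript molecule), and the ground library held 9162 barcodes and 85014860 UMIs. After filtering, 9080 running and 8666 ground cells remained, with medians of 5145.5 and 5938 UMIs per cell. The libraries shared 24 barcodes, 22 of them among the cells kept, and leaving those cells out moved no count of genes past the threshold described below. Clustering, done without the 9 genes or their target lists, gave 31 clusters in 16 marker-named classes, and 14 classes with at least 50 cells in each library were compared. Mature neutrophil-like cells were the most frequent class, with 33.7% of running and 29.5% of ground cells. Levels are CPM, a gene's UMIs summed over the cells of a class and scaled to all UMIs of that class. Each molecule is counted once whatever its length, so levels of different genes are compared below without a length term, although capture can differ between genes.

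Over all cells, Irf7 was the member that differed most between the libraries. It stood at 44.5 CPM in running marrow, against 23.6 CPM in ground marrow, a log2 ratio of 0.92 (0.84 to 1.0). Stat2 followed at 23.5 CPM in running and 18.5 CPM in ground cells (log2 ratio 0.34, 0.24 to 0.44), and Irf9 at 58.6 and 47.1 CPM (0.32, 0.25 to 0.38). The other 6 genes had log2 ratios between -0.08 for Ifngr1 and 0.16 for Irf2. A ratio of at least 1.5 in either direction was used as a threshold of size, not as a test: 1 of the 9 genes, Irf7, was past it upward and 0 were past it downward, against 6.53% of all 13738 genes with at least 50 UMIs upward and 1.87% downward. The median log2 ratio was 0.12 over the 9 genes and 0.08 over all genes.

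The shares of cell classes differed between the libraries, so the ratios were also computed with the class proportions of the ground library given to both. Irf7 then had a log2 ratio of 0.81, Stat2 of 0.27 and Irf9 of 0.24. Irf8 had a log2 ratio of -0.10, and the other 5 genes lay between -0.06 and 0.05. The order of the leading genes was thus Irf7, Stat2 and Irf9 with and without this step.

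The receptor chains were most abundant in different cells. Ifnar1 (mm10 chromosome 16, 91485032 to 91510523) and Ifnar2 (chromosome 16, 91372783 to 91405589) lie close together, and both were highest in plasmacytoid dendritic cell-like cells, a cell type specialised in type I interferon production. There Ifnar1 reached 187 CPM in running and 195 CPM in ground cells, and Ifnar2 reached 358 and 384 CPM. The counting intervals of this class did not overlap those of the next class in either library for either gene. Ifnar1 was lowest in erythroid-like cells, at 8.38 CPM in running and 10.4 CPM in ground cells. Ifnar2 was lowest in B-cell precursor-like cells, at 42.9 and 42.8 CPM. Monocyte-like cells held 34.2% of running and 33.6% of ground Ifnar2 UMIs.

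The balance of the type I receptor transcripts differed between cell types in both libraries. Ifnar2 exceeded Ifnar1 in granulocyte-monocyte progenitor-like cells, where the log2 ratio of Ifnar1 to Ifnar2 was -2.63 (-2.92 to -2.34) in running and -2.70 (-2.95 to -2.46) in ground cells. Ifnar1 exceeded Ifnar2 in B cell-like cells, with a log2 ratio of 0.60 (0.27 to 0.94) in running and 0.73 (0.39 to 1.07) in ground cells. NK cell-like cells were at 0.68 (0.04 to 1.33) in running and -0.40 (-1.27 to 0.45) in ground cells, with overlapping intervals. Over all cells the log2 ratio was -1.61 in running and -1.67 in ground marrow.

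Ifngr1 (chromosome 10, 19591949 to 19610229) had another distribution, with NK cell-like cells at the top. It reached 473 CPM (413 to 539) there in running and 371 CPM (304 to 449) in ground cells. T cell-like, conventional dendritic cell-like and monocyte-like cells came next, between 229 and 301 CPM in running and between 241 and 301 CPM in ground cells, and conventional dendritic cell-like cells did not differ from NK cell-like cells beyond counting error in the ground library. Plasmacytoid dendritic cell-like cells, the richest in type I receptor transcripts, had 29.1 CPM of Ifngr1 in running and 33.0 CPM in ground cells, among the lowest levels of all classes.

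**Figure D1:**
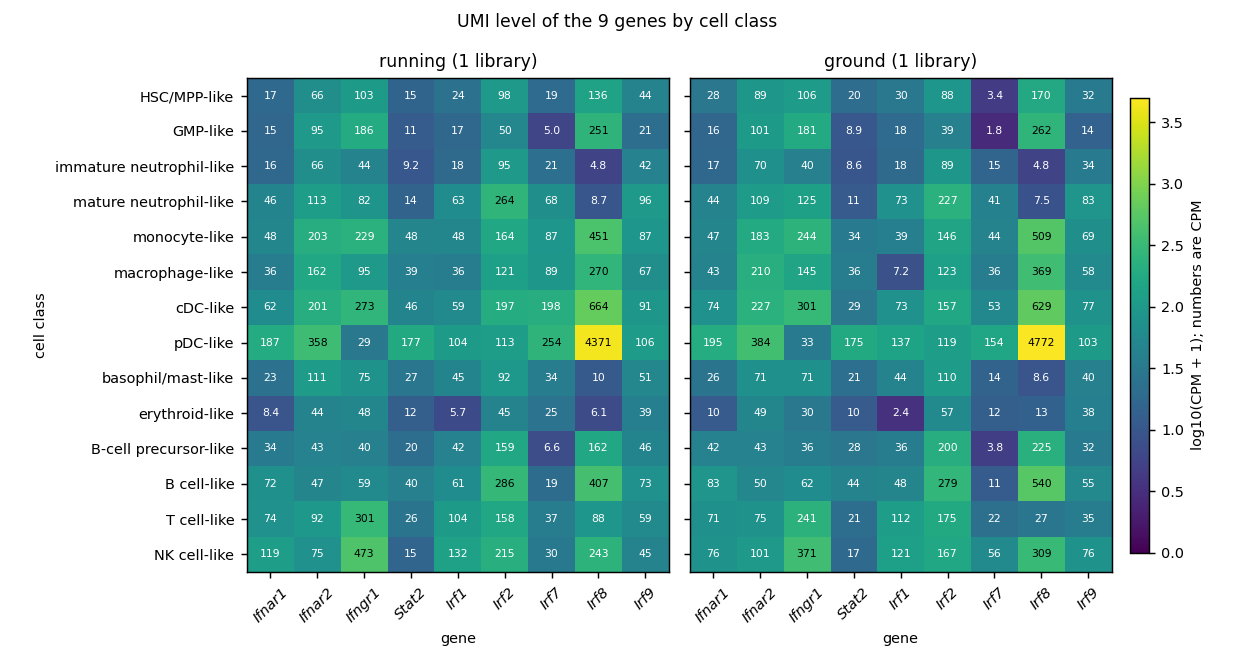
Levels of the 9 genes (columns) in 14 cell classes (rows) in the running library (left) and the ground library (right), as CPM of summed UMIs, with colour on a log10(CPM + 1) scale. HSC/MPP is the stem and multipotent progenitor-like class, GMP the granulocyte-monocyte progenitor-like class, cDC and pDC the conventional and plasmacytoid dendritic cell-like classes; Irf8 in pDC-like cells, at 4371 CPM in running and 4772 CPM in ground cells, is the highest value drawn.

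In monocyte-like cells the receptor chains had close levels in both libraries. Ifnar1 had 48.4 CPM in running and 47.5 CPM in ground cells (log2 ratio 0.03, -0.13 to 0.18), Ifnar2 had 203 and 183 CPM (0.15, 0.07 to 0.23), and Ifngr1 had 229 and 244 CPM (-0.09, -0.16 to -0.02). These sizes are well inside the 1.5-fold threshold. In stem and multipotent progenitor-like cells both type I chains were lower in running marrow. Ifnar1 had 45 UMIs in running and 66 in ground cells there (log2 ratio -0.70, -1.28 to -0.13), and Ifnar2 had 173 and 209 UMIs (-0.42, -0.72 to -0.12). The Ifnar1 difference fell short of 1.5-fold with finer clusters, at -0.55. NK cell-like cells had 56 Ifnar1 UMIs in running and 22 in ground cells (log2 ratio 0.64, -0.09 to 1.43), and basophil or mast cell-like cells had 110 and 50 Ifnar2 UMIs (0.63, 0.14 to 1.15). Counts of this size leave both intervals wide, and the first call was lost with doublets kept (0.55) and the second as a mean of CPM over cells (0.46).

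In mature neutrophil-like cells Ifngr1 was lower in running marrow, at 81.9 CPM in running and 125 CPM in ground cells (log2 ratio -0.61, -0.73 to -0.49). Most running and most ground cells of this class fell in different clusters. A cluster led by Il1b and Ptgs2 and one led by Cstdc4 and Retnlg held 41.0% and 33.0% of the running cells of the class and 3.83% and 3.95% of its ground cells. A cluster led by Igfbp6 and Ifitm1 and one led by Cstdc4 and Prok2 held 2.03% and 2.61% of the running cells and 36.9% and 29.5% of the ground cells. The fifth cluster, led by Mmp8 and Retnlg, held 21.4% of the running and 25.9% of the ground cells. In that shared cluster Ifngr1 had 50.4 CPM in running and 55.9 CPM in ground cells, a log2 ratio of -0.15 (-0.44 to 0.14). In the other 4 clusters it lay between -1.01 and -0.35. With 1 library per group, a cluster made mostly of 1 library cannot be told apart from that library. Macrophage-like cells also had a log2 ratio of -0.61, from 61 running and 20 ground UMIs, with an interval on both sides of 0 (-1.36 to 0.20).

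In erythroid-like cells Ifngr1 was higher in running marrow, with 583 UMIs in running and 319 in ground cells (48.4 and 29.8 CPM, log2 ratio 0.70, 0.50 to 0.90). This fell short of 1.5-fold with doublets kept (0.55) and as a mean of CPM over cells (0.56). Few cells carried most of these molecules. The 46 running and 23 ground cells with at least 5 Ifngr1 UMIs held 461 of the 583 and 195 of the 319. These cells had little haemoglobin transcript, with 569 CPM of Hba-a1 in running and 818 CPM in ground cells, against 19460 and 27982 CPM in the rest of the class. They had more Kit, the stem cell factor receptor of early progenitors, with 94.1 CPM in running and 90.2 CPM in ground cells, against 13.5 and 4.11 CPM in the rest. Without them Ifngr1 stood at 14.2 CPM in running and 13.4 CPM in ground erythroid-like cells. The median depth of the class was 15187 UMIs in running and 8661.5 UMIs in ground cells, and the part of class make-up and depth in the Ifngr1 ratio was not tested beyond these values.

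Stat2 (chromosome 10, 128270498 to 128292853) and Irf9 (chromosome 14, 55603985 to 55610030) encode the subunits of ISGF3 that are members here. Both were highest in plasmacytoid dendritic cell-like cells. Stat2 had 177 CPM there in running and 175 CPM in ground cells, far above monocyte-like cells, at 48.1 CPM in running and 34.2 CPM in ground cells. Irf9 was more even across classes. It had 106 CPM in running and 103 CPM in ground plasmacytoid dendritic cell-like cells, and 95.6 and 82.8 CPM in mature neutrophil-like cells, whose intervals overlapped those of the plasmacytoid class in the running and the ground library. Granulocyte-monocyte progenitor-like cells were lowest for Irf9, at 20.6 CPM in running and 13.7 CPM in ground cells.

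The ratio of these ISGF3 subunits to each other changed with cell type. Stat2 exceeded Irf9 in plasmacytoid dendritic cell-like cells, with a log2 ratio of Stat2 to Irf9 of 0.74 (0.44 to 1.05) in running and 0.76 (0.39 to 1.14) in ground cells. In mature neutrophil-like cells Irf9 exceeded Stat2 instead, with log2 ratios of -2.76 (-3.01 to -2.52) in running and -2.97 (-3.25 to -2.69) in ground cells. Neutrophil-like cells of both libraries therefore carried several Irf9 molecules for each Stat2 molecule. The Stat2 gene overlaps Apof in the annotation, and Apof had 22 UMIs in running and 9 in ground cells over the whole data.

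Irf9 was higher in running marrow in each class counted, by an amount that varied between classes. Its log2 ratio was above 0 in 13 of the 13 classes in which it had at least 50 UMIs, from 0.03 (-0.35 to 0.42) in plasmacytoid dendritic cell-like cells to 0.72 (0.18 to 1.3) in T cell-like cells, with a median of 0.34. In 8 of these classes the whole counting interval lay above 0. Of the 2374 genes with at least 50 UMIs in 13 or more classes, 22 genes, or 0.927%, were likewise above 0 in every class in which they were counted. Irf9 was also above 0 in 24 of 24 clusters. T cell-like cells were the only class past 1.5-fold, with 109 UMIs in running and 38 in ground cells, and this call was lost with doublets kept, at 0.51. Granulocyte-monocyte progenitor-like cells lay just under the threshold, at 0.58 (0.25 to 0.92), and passed it with mitochondrial, ribosomal, haemoglobin and granule genes left out of the totals (0.59), with finer clusters (0.63) and without the 5 cells with most Irf9 in each library (0.60). As a mean of CPM over cells that value was -0.01, and with cells thinned to 1000 UMIs it was -0.11. Stem and multipotent progenitor-like cells were at -0.58 when thinned, from 8 running and 12 ground UMIs. NK cell-like cells, with 21 running and 22 ground UMIs, had 44.7 CPM in running and 76.3 CPM in ground cells and were below the count minimum.

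Stat2 was less even in direction, with log2 ratios from -0.49 in stem and multipotent progenitor-like cells to 0.68 in conventional dendritic cell-like cells. In monocyte-like cells it had 656 UMIs in running and 533 in ground cells (48.1 and 34.2 CPM, log2 ratio 0.49, 0.32 to 0.66). In mature neutrophil-like cells it had 14.1 CPM in running and 10.6 CPM in ground cells (0.41, 0.06 to 0.77). The conventional dendritic cell-like value rested on 39 running and 31 ground UMIs (-0.04 to 1.41). It turned to -0.12 when the interferon genes were kept among the genes used for clustering.

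Irf1 (chromosome 11, 53770014 to 53778374) and Irf2 (chromosome 8, 46739745 to 46847458) showed no difference past 1.5-fold over all cells. Irf1 had 36.1 CPM in running and 33.2 CPM in ground marrow (log2 ratio 0.12, 0.04 to 0.20), and Irf2 had 133 and 120 CPM (0.16, 0.12 to 0.20). Irf1 was highest in NK cell-like, plasmacytoid dendritic cell-like and T cell-like cells, between 104 and 132 CPM in running and between 112 and 137 CPM in ground cells, with overlapping intervals. Irf2 was highest in B cell-like cells, at 286 CPM in running and 279 CPM in ground cells. Mature neutrophil-like cells followed with 264 and 227 CPM. Irf2 overlaps 2 lncRNA genes in the annotation, of which Gm31172 had 4 UMIs in running and 5 in ground cells.

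The balance of the activator Irf1 to Irf2 also followed cell type. Its log2 ratio was near 0 in plasmacytoid dendritic cell-like cells, at -0.12 (-0.45 to 0.22) in running and 0.20 (-0.17 to 0.58) in ground cells. In erythroid-like cells it was -2.97 (-3.35 to -2.60) in running and -4.55 (-5.18 to -3.99) in ground cells. In mature neutrophil-like cells it was -2.07 (-2.19 to -1.95) in running and -1.64 (-1.76 to -1.53) in ground cells. These intervals do not overlap: Irf1 was lower there in running cells, at 62.7 CPM in running and 72.9 CPM in ground cells (-0.22, -0.36 to -0.07), while Irf2 was higher (0.22, 0.14 to 0.29).

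Irf1 was past 1.5-fold in erythroid-like cells only, with 69 UMIs in running and 26 in ground cells (5.72 and 2.43 CPM, log2 ratio 1.24, 0.57 to 1.95). That value turned to -1.0 as a mean of CPM over cells and to -2.0 with each cell thinned to 1000 UMIs. In monocyte-like cells Irf1 had 48.3 CPM in running and 38.9 CPM in ground cells (0.31, 0.15 to 0.47). Irf2 was past 1.5-fold in 0 of 14 classes, with log2 ratios from -0.35 in erythroid-like to 0.37 in NK cell-like cells.

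Irf7 (chromosome 7, 141263183 to 141266499) was highest in plasmacytoid dendritic cell-like cells. It had 254 CPM (228 to 282) there in running and 154 CPM (130 to 182) in ground cells, a log2 ratio of 0.72 (0.43 to 1.01). Conventional dendritic cell-like cells were second in the running library, with 198 CPM (169 to 230), against 52.6 CPM (39.8 to 68.1) in ground cells. This ratio of 1.91 (1.47 to 2.37) on the log2 scale was the largest with over 100 UMIs. Monocyte-like cells had 1186 UMIs in running and 692 in ground cells (86.9 and 44.4 CPM, log2 ratio 0.97, 0.83 to 1.11) and held 34.0% of running and 35.8% of ground Irf7 molecules.

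The Irf7 difference was seen in B cell-like, T cell-like, erythroid-like and myeloid classes, but not in NK cell-like cells, which were under the count minimum. Of the 11 classes with at least 50 Irf7 UMIs, 10 were at least 1.5-fold higher in running marrow. Immature neutrophil-like cells fell short, with 21.1 CPM in running and 14.8 CPM in ground cells (log2 ratio 0.51, 0.29 to 0.73). Over all 115 pairs of a member and a class with at least 50 UMIs, 17 were at least 1.5-fold higher and 4 at least 1.5-fold lower in running marrow, against 4.98% and 3.83% of the 98016 pairs of any gene and class. Within single classes the share of all genes past the threshold ran from 2.73% in B-cell precursor-like to 13.6% in macrophage-like cells upward, and from 1.47% in immature neutrophil-like to 11.6% in macrophage-like cells downward. Irf7 supplied 10 of the 17. Of 4484 genes with at least 50 UMIs in 11 or more classes, 7 genes, or 0.156%, were at least 1.5-fold higher in 10 or more. Listed after their values were seen, the other 6 include Isg15, Rtp4 and Ifi27l2a, which are interferon-induced. The rest are the class I gene H2-Q7, the chemokine Ccl4 and Gm43305.

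Progenitor-like cells had little Irf7, and more of it in running marrow. Stem and multipotent progenitor-like cells had 49 UMIs in running and 8 in ground cells (18.8 and 3.39 CPM, log2 ratio 2.47, 1.38 to 3.76), and granulocyte-monocyte progenitor-like cells had 38 and 18 UMIs (1.51, 0.66 to 2.4). Erythroid-like cells had 301 and 132 UMIs (1.02, 0.72 to 1.33), and B cell-like cells had 52 and 25 (0.85, 0.13 to 1.60). In T cell-like cells the counts were 68 in running and 24 in ground cells (0.70, 0.01 to 1.44), and the value fell under 1.5-fold as a mean of CPM over cells, at 0.47. Macrophage-like cells had 57 and 5 UMIs at medians of 998.5 and 824 UMIs per cell, and they also carried 80474 CPM of the neutrophil transcript S100a8 in running and 55591 CPM in ground cells, whose part in the Irf7 value was not tested. With each cell thinned to 1000 UMIs the plasmacytoid and granulocyte-monocyte progenitor-like values were 0.57 and under the threshold, the second on 1 UMI in each library. The thinned T cell-like value was also under it, at 0.51, whereas immature neutrophil-like cells passed it, at 0.66. Conventional dendritic cell-like cells were at 0.95 (-0.32 to 2.31) when thinned. NK cell-like cells, under the count minimum, had 14 Irf7 UMIs in running and 16 in ground cells. Their level was lower in running marrow, at 29.8 CPM in running and 55.5 CPM in ground cells.

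**Figure D2:**
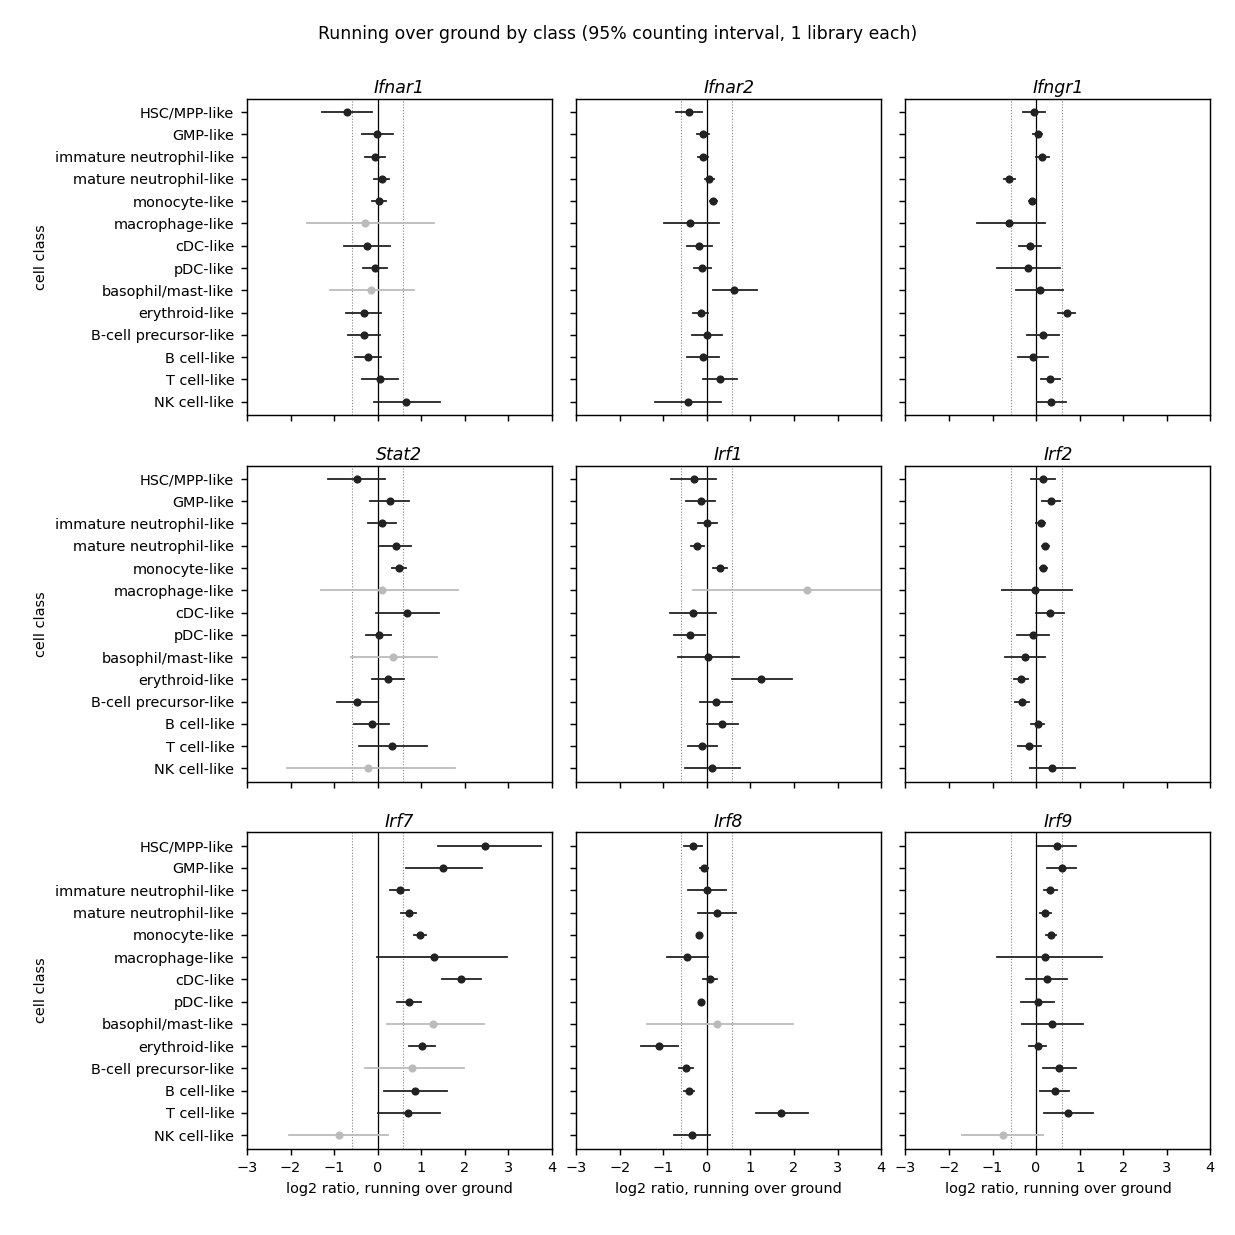
Log2 ratios of running over ground (horizontal axis) of each gene in 14 classes (vertical axis), with 95% counting intervals drawn out to -3 and 4. Grey points have under 50 UMIs in both libraries together, and dotted lines mark 1.5-fold. Irf7 lies right of 0 in 11 of 11 black points, from 0.51 to 2.47, and Irf9 in 13 of 13, from 0.03 to 0.72, while the other genes fall on both sides of 0.

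More cells carried an Irf7 molecule in the running library. The share with at least 1 UMI was 22.9% (22.0 to 23.8, exact binomial) in running and 15.4% (14.7 to 16.2) in ground cells. With each cell thinned to 1000 UMIs, which left out 316 running and 341 ground cells, the shares were 5.75% (5.27 to 6.26) in running and 3.23% (2.86 to 3.63) in ground cells. Among monocyte-like cells the unthinned shares were 49.7% in running and 29.0% in ground cells, at median depths of 9177 and 10010 UMIs. Among conventional dendritic cell-like cells they were 64.9% and 31.7%, at 8363 and 9317 UMIs. The running cells thus had the higher share at the lower depth in these comparisons.

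Inside the monocyte and neutrophil classes the Irf7 ratio was not the same in every cluster. In the 5 monocyte-like clusters the log2 ratio ran from 0.74 (0.57 to 0.92) in the cluster led by Vcan, Fn1 and Ccr2, with 155 CPM in running and 92.3 CPM in ground cells, to 1.74 (0.74 to 2.87) in the Ace and Adgre4 cluster, with 137 and 40.9 CPM from 36 running and 11 ground UMIs. The intervals of these extremes overlap, whereas the cluster led by F13a1 and Hist1h2ab, at 1.44 (1.06 to 1.84), did not overlap the Vcan cluster. In the mature neutrophil-like class Irf7 had 67.8 CPM in running and 41.3 CPM in ground cells (0.71, 0.55 to 0.88). In its cluster shared by both libraries, Irf7 had 38.1 CPM in running and 31.5 CPM in ground cells, a log2 ratio of 0.27 (-0.09 to 0.64), which is under 1.5-fold. The Igfbp6 and Ifitm1 cluster, mostly ground, had 201 CPM from 62 running cells and 53.3 CPM from 943 ground cells (1.91, 1.31 to 2.47), and the remaining 3 clusters lay between 0.30 and 0.57. Over all clusters with at least 50 Irf7 UMIs, 17 of 17 had a log2 ratio above 0.

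**Figure D3:**
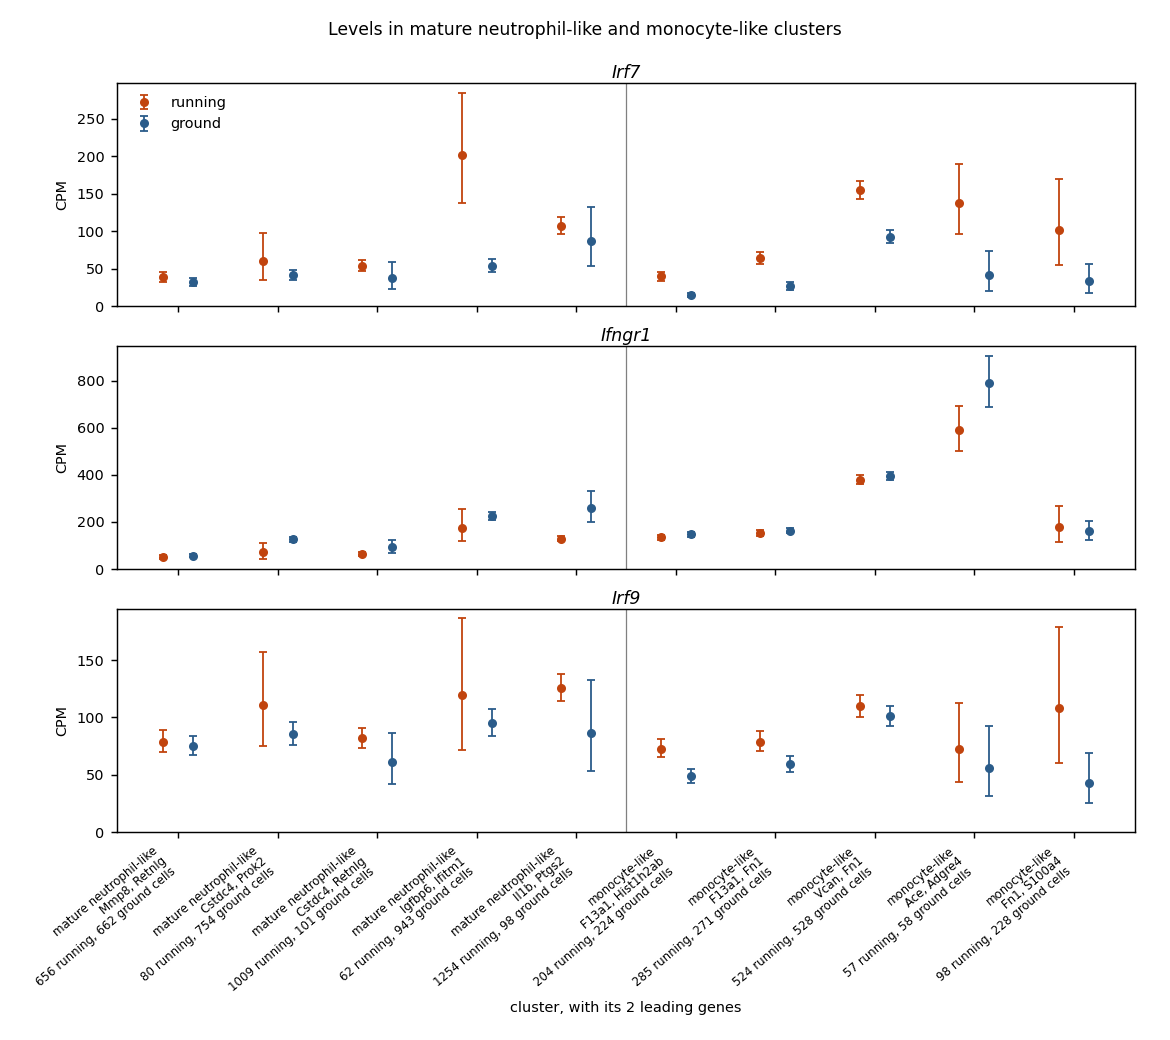
CPM of Irf7, Ifngr1 and Irf9 (vertical axes) in the 5 mature neutrophil-like clusters (left of the grey line) and the 5 monocyte-like clusters (right), running beside ground, with 95% counting intervals. Irf7 is higher in running cells in all 10 clusters, with overlapping intervals in 4 of the 5 neutrophil-like clusters. In the first cluster Irf7 is at 38.1 CPM in running and 31.5 CPM in ground cells, and Ifngr1 at 50.4 and 55.9 CPM.

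Irf7 was also higher relative to Irf9 in running cells of several classes, measured as molecules within each library. In monocyte-like cells the log2 ratio of Irf7 to Irf9 was 0.00 (-0.12 to 0.12) in running and -0.63 (-0.77 to -0.49) in ground cells. In conventional dendritic cell-like cells it was 1.13 (0.73 to 1.53) in running and -0.54 (-1.05 to -0.04) in ground cells. In T cell-like cells it was -0.68 in running and -0.66 in ground cells, where both genes were higher in running marrow by a like amount.

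Irf8 (chromosome 8, 120736358 to 120756694) was the most abundant member over all cells, at 224 CPM in running and 227 CPM in ground marrow (log2 ratio -0.02, -0.05 to 0.01). Its level spanned the classes more widely than that of any other member. Plasmacytoid dendritic cell-like cells had 4371 CPM in running and 4772 CPM in ground cells, and 100% of them carried at least 1 Irf8 UMI in the running and the ground library. The conventional class came second, with 664 and 629 CPM. Monocyte-like cells had 451 and 509 CPM (-0.18, -0.22 to -0.13), and B cell-like cells had 407 and 540 CPM (-0.41, -0.52 to -0.29). The Irf8 log2 ratio was at or below 0 in 10 of 13 classes, with the whole interval below 0 in 6, and 1 of the 13 was at least 1.5-fold lower.

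Neutrophil-like cells gave the background for Irf8, since they are a lineage with little of it. Only 3.07% of running and 2.97% of ground mature neutrophil-like cells carried an Irf8 UMI, at median depths of 3492 and 4068 UMIs, and the class had 8.73 CPM in running and 7.45 CPM in ground cells. In erythroid-like cells 10.1% of running and 10.7% of ground cells carried one, at median depths of 15187 and 8661.5 UMIs.

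Among granulocyte-monocyte progenitor-like cells Irf8 split the class. Cells with at least 5 Irf8 UMIs made up 34.0% (28.1 to 40.2) of running and 25.7% (21.4 to 30.4) of ground cells, with overlapping intervals. They held 98% and 97.3% of the Irf8 molecules of the class. Their median depth was higher than that of the other cells, at 36390 against 26985 UMIs in running and 40836 against 24017 UMIs in ground cells. These cells had less of Elane, a neutrophil granule protease gene, with 3870 CPM in running and 4032 CPM in ground cells, against 12051 and 11713 CPM in the other cells. They had more of Csf1r, the macrophage colony-stimulating factor receptor, with 72.0 CPM in running and 74.9 CPM in ground cells, against 3.18 and 6.68 CPM. Over the whole class Irf8 had 251 CPM in running and 262 CPM in ground cells (-0.07, -0.15 to 0.02).

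The widest Irf8 ratios came from a handful of cells. T cell-like cells had 164 Irf8 UMIs in running and 29 in ground cells (88.1 and 27.1 CPM, log2 ratio 1.70, 1.13 to 2.32). In the running library 4 cells held 129 of the 164, and 1 of them held 67. These 4 cells had 634 CPM of Siglech, a plasmacytoid dendritic cell marker, against 1.66 CPM in the other running T cell-like cells. Without the 5 cells with most Irf8 in each library the log2 ratio was 0.15 (-0.76 to 1.12), and the share of T cell-like cells with an Irf8 UMI was 11.4% in running and 10.1% in ground cells. In erythroid-like cells Irf8 was lower in running marrow, with 74 UMIs in running and 140 in ground cells (-1.09, -1.52 to -0.67). There 2 ground cells held 76 of the 140, and without the 5 cells with most Irf8 in each library the value was -0.38 (-0.97 to 0.20). In stem and multipotent progenitor-like cells the same step moved Irf8 away from 0, from -0.32 to -0.95 (-1.27 to -0.63). The 5 cells held 62.9% of running and 42.9% of ground Irf8 UMIs there, so the step was uneven. That class was also past 1.5-fold lower with finer clusters (-0.72) and with interferon genes kept for clustering (-0.77). When thinned it was not, at -0.32 (-1.25 to 0.59). The 13 running and 19 ground cells with at least 5 Irf8 UMIs held 89.6% and 88.8% of the Irf8 molecules of the class. They had 94.1 CPM of Siglech in running and 94.0 CPM in ground cells, against 0.84 and 1.51 CPM in the rest.

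**Figure D4:**
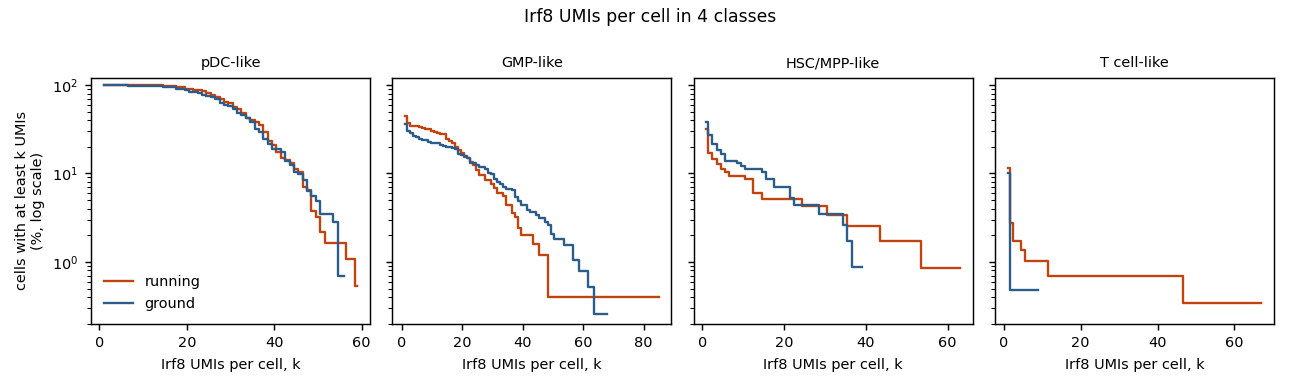
Percentage of cells (vertical axis, log scale) with at least k Irf8 UMIs (horizontal axis) in 4 classes, running and ground. The pDC-like curves start at 100% in both libraries, the GMP-like and HSC/MPP-like curves fall slowly after a first drop, and the running T cell-like curve is carried out to 67 UMIs by single cells.

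Among related STATs and IRFs outside the 9 genes, Stat4 had 22.7 CPM in running and 19.1 CPM in ground marrow (log2 ratio 0.25, 0.15 to 0.34), Stat5a had 20.13 and 17.01 CPM (0.24, 0.14 to 0.35), and Irf4 had 12.2 and 10.7 CPM (0.20, 0.06 to 0.33). These 3 were under 1.5-fold, and the other genes of that list are not described here.

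Of 15 receptor kinases and negative regulators, 1 was past 1.5-fold upward and 1 downward over all cells. Of all genes, 6.53% were past it upward and 1.87% downward, the background for each list in this paragraph. The count of 1 of 15 is near the upward share. Usp18, which blocks type I receptor signalling, had 13.8 CPM in running and 6.76 CPM in ground marrow (log2 ratio 1.03, 0.88 to 1.18). Socs3, a cytokine signalling suppressor, had 12.4 and 19.8 CPM (-0.68, -0.79 to -0.56). Socs1 (0.54) and Ptpn1 (-0.38) were under the threshold. Of 21 sensor and adaptor genes upstream of IRFs, 3 were past 1.5-fold upward and 1 downward. The leading ones were the nucleic acid sensors Zbp1, at 39.3 CPM in running and 20.5 CPM in ground marrow (0.93, 0.85 to 1.02), and Ifih1, at 23.4 and 14.9 CPM (0.66, 0.55 to 0.76). The kinase gene Ikbke had 9.59 CPM in running and 14.4 CPM in ground marrow (-0.59, -0.72 to -0.46). Of 19 lineage factors listed beside Irf8, 0 were past 1.5-fold over all cells.

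Genes that ISGF3 and IRF1 are known to act on were higher in running marrow as lists. The lists were chosen with earlier results of these data known, so their counts are a description. Of 40 ISGF3 target genes, 23 were at least 1.5-fold higher and 0 lower over all cells, against 6.53% and 1.87% of all genes. Their median log2 ratio was 0.64, against 0.08 for all genes. Ifi44 had 5.62 CPM in running and 1.62 CPM in ground marrow (1.80, 1.51 to 2.09), and Ifit3 had 13.5 and 4.18 CPM (1.70, 1.52 to 1.88). Of 28 IRF1 and interferon gamma target genes, 15 were higher and 0 lower past 1.5-fold, with a median of 0.66. Gbp6, a guanylate-binding protein gene, had 3.28 CPM in running and 0.682 CPM in ground marrow (2.26, 1.84 to 2.71), and Iigp1, an immunity-related GTPase gene, had 6.56 and 1.42 CPM (2.20, 1.91 to 2.50). Gbp, Tgtp, Oas and Ifit genes have near-identical copies, so reads of single copies are uncertain.

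By class the size of the difference was not the same for the target lists and the members, and the number of list genes counted also changed with class. In monocyte-like cells 26 of 40 ISGF3 targets and 14 of 26 IRF1 and interferon gamma targets were at least 1.5-fold higher, with medians of 0.75 and 0.67, where 3.25% of all genes were higher and 1 of the 9 members was. In conventional dendritic cell-like cells 24 of 33 ISGF3 targets were higher, with a median of 0.88, against 5.8% of all genes. Rsad2, an antiviral enzyme gene, had 155 CPM in running and 14.8 CPM in ground cells there (3.40, 2.64 to 4.24). In erythroid-like cells 13 of 17 IRF1 and interferon gamma targets were higher, with a median of 1.42, against 5.59% of all genes, and the immunoproteasome gene Psmb9 had 55.8 CPM in running and 15.9 CPM in ground cells (1.82, 1.57 to 2.07). In plasmacytoid dendritic cell-like cells, the class with most Irf7, Stat2 and Ifnar1, 3 of 22 ISGF3 targets were higher, with a median of 0.28, against 4.43% of all genes.

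**Figure D5:**
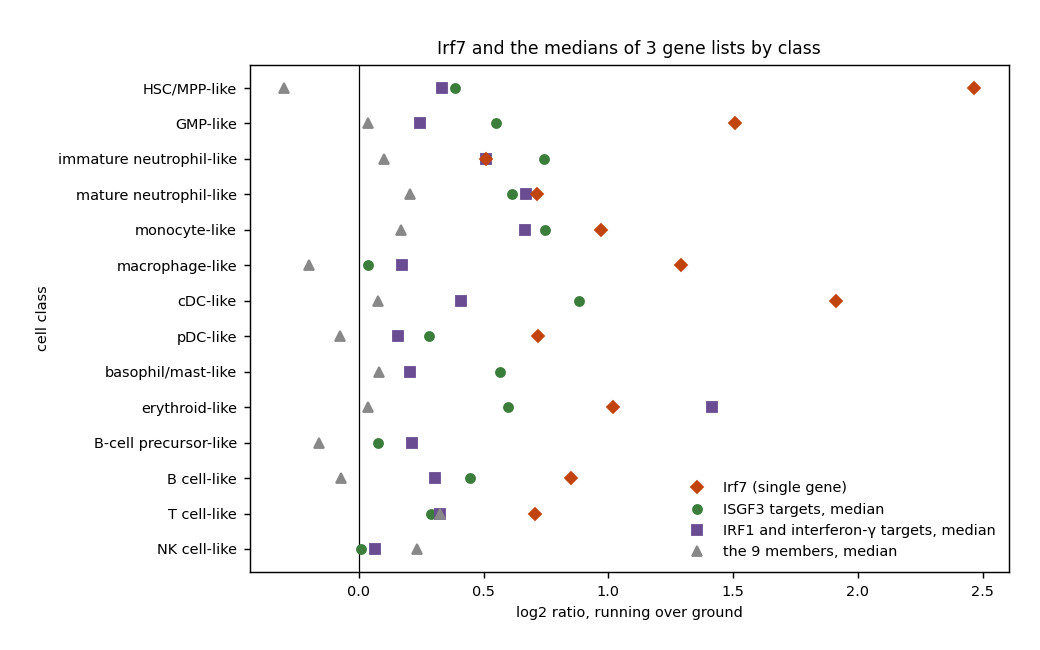
Log2 ratio of running over ground (horizontal axis) by class (vertical axis) for Irf7, where it had at least 50 UMIs, and as medians for ISGF3 targets, IRF1 and interferon gamma targets and the 9 members. Irf7 lies furthest right in 9 of the 11 classes that have it, and the member medians lie between -0.30 and 0.32.

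Across the 11 classes with enough Irf7, the Irf7 log2 ratio and the median ratio of the ISGF3 targets had a Pearson correlation of 0.02, and with the IRF1 and interferon gamma targets -0.17. The points share both libraries and differ in depth, so this is a description. The medians also rest on different genes, with 40 ISGF3 targets counted in monocyte-like and 13 in macrophage-like cells. The largest Irf7 ratio, in stem and multipotent progenitor-like cells, rested on 49 running and 8 ground UMIs. These limits leave a correlation near 0 hard to read. In mature neutrophil-like and monocyte-like cells, those in which Irf7 was detected had more ISGF3 target molecules. Both classes pool clusters that differ in Irf7 level, and the comparison was not made within clusters. At 1000 UMIs per cell, the 221 running mature neutrophil-like cells with an Irf7 UMI had a mean of 9.60 ISGF3 target UMIs, against 4.67 in the 2824 without one. The 113 ground cells with Irf7 had 7.29, against 3.12 in the 2400 without. In monocyte-like cells the means were 10.5 with and 7.31 without Irf7 in running cells, and 8.16 and 4.46 in ground cells. Before thinning, 49.7% of all running monocyte-like cells had an Irf7 UMI, so cells without one at 1000 UMIs include cells that carry it. The pattern was not limited to Irf7. With a Stat2 UMI, mature neutrophil-like cells had 7.92 target UMIs against 4.99 without one in the running library, and 8.18 against 3.25 in the ground library, and the means were also higher with than without a UMI of Ifnar2, Ifngr1, Irf1, Irf2 or Irf9 in both classes and libraries. Exceptions in these classes were Irf8 in monocyte-like cells, with 7.33 against 7.74 in the running and 4.43 against 4.77 in the ground library, and Ifnar1 in running mature neutrophil-like cells, with 4.88 against 5.04. In other classes the direction varied between members and between classes.

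Type I and type III interferon transcripts were nearly absent from the counts. Whether reads shared by similar Ifna genes were lost from these counts was not tested. Their 20 ligand genes together had 2 UMIs in running and 5 in ground cells. Ifng, the interferon gamma gene, had 203 UMIs in 75 running cells and 45 UMIs in 36 ground cells, and 161 of the running and 26 of the ground UMIs were in T cell-like cells. A single running cell held 66 of the 203.

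Genes with the most similar distribution to each member were ranked by Pearson correlation of log2(CPM + 10) over the 28 points of 14 classes in 2 libraries, among 10612 genes. The points share libraries and depth, and no test was made. Irf7 ran close to Nptn (0.88) and Usp18 (0.84), and among the members closest to Irf9 (0.86). Stat2 ran closest to Clcn5 (0.94), Selenot (0.92) and Dtx2 (0.91). Ifnar1 ran closest to Nek7, Zxdb and Slfn8, between 0.88 and 0.89, and Ifnar2 to Itprid2, Mpeg1 and Fam174a, between 0.91 and 0.92. Ifngr1 was nearest to Sh3bp1 (0.90), Batf (0.84) and Ubash3b (0.83). Irf1 was nearest to Map3k2, Zdhhc20 and Nfatc1, between 0.88 and 0.90, and Irf2 to Ypel3, Btg1 and Ddx5, between 0.90 and 0.91. Irf8 was nearest to Pkib (0.87), Arhgap17 (0.87) and Scpep1 (0.86), and Irf9 to Ier5 (0.85), Camk1d (0.83) and Trim30d (0.83). Ifngr1 stood apart from the other members, with correlations to them between -0.18 and 0.36.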

How the data were processed

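The 2 libraries were made with 3' droplet chemistry, per the labels' protocols. The authors deposited raw UMI counts per gene and barcode, and the file headers name Cell Ranger 5.0.0. The mm10 build and STAR come from the submitters' processing notes. Coordinates and overlaps come from the RefSeq annotation of GRCm38.p6, the same build. Intronic and strand settings of the counting are not given in the sources used here.

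Cells with at least 500 UMIs, 250 genes and at most 10% mitochondrial UMIs were kept (293 running and 253 ground barcodes removed), and Scrublet marked 100 running (1.09%) and 243 ground (2.73%) cells as doublets, which were removed. Cells were clustered with scanpy 1.11.5 (1964 variable genes after 36 interferon and member genes were left out, 30 components, 15 neighbours, Leiden resolution 1), and clusters were named from marker lists that hold no member. UMIs were summed per class and library. Levels are CPM with exact Poisson intervals, ratios have exact conditional binomial intervals and shares of cells exact Clopper-Pearson intervals, which cover counting error only. Genes with at least 50 UMIs in both libraries together were counted against the 1.5-fold threshold. Simulated data were modelled on the monocyte-like comparison (10572 genes, 200 changed 2-fold). In them 95.7% of intervals held the true ratio, and 98.5% of changed genes and 0.82% of unchanged genes were past 1.5-fold. These shares check the calculation for counting error only. Spread between libraries could not be modelled with 1 library per group. The shares do not extend to genes with most molecules in few cells. In running T cell-like cells, 1 cell held 67 of 164 Irf8 UMIs.

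All 9 members are named. Of other lists, up to 4 genes with the largest log2 ratio among those with at least 100 UMIs were eligible to be named, and for each member the 3 most similar genes; 1 gene that this rule names is not reported here. Members and lists were chosen with earlier results of these data known. Alternatives changed the scaling, depth, doublets, clustering, count minimum and threshold, left out single cells or clusters, or thinned each cell to 1000 UMIs. The mesenchymal stromal-like (48 and 24 cells) and plasma cell-like (24 and 29 cells) classes were too small to compare.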

Additional observations from a re-analysis of the deposited data

Results flagged for a closer look

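Ifngr1 and Irf8 differed in opposite directions in different classes. Ifngr1 had a log2 ratio of running over ground of 0.70 in erythroid-like cells and -0.612 in mature neutrophil-like cells. Irf8 had a log2 ratio of 1.70 in T cell-like cells and -1.09 in erythroid-like cells. Each was picked out because the counting intervals of both classes lie on opposite sides of 0 and both pass 1.5-fold. For Irf8 this no longer holds without the 5 cells with most Irf8 in each library, where the T cell-like value was 0.15 (-0.76 to 1.12) and the erythroid-like value -0.38 (-0.97 to 0.20). For Ifngr1 it did not hold in every setting either. The mature neutrophil-like value was -0.15 in the cluster shared by both libraries. The erythroid-like value was 0.55 with doublets kept and 0.56 as a mean of CPM over cells. All of these Ifngr1 values are under 1.5-fold. With 1 library per group, the difference between classes was not tested.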

How the results depend on the processing

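No paired analysis was possible because each group has 1 library and the labels carry no replicate numbers. The log2 ratio of Irf7 over all cells lay between 0.81 and 0.93 in 14 alternatives. Against 17 pairs of a member and a class past 1.5-fold upward and 4 downward of 115, a minimum of 200 UMIs gave 6 and 2 of 80, a 2-fold threshold 7 and 1 of 115, a looser threshold (a ratio of 5 to 4) 34 upward and 16 downward of 115, and thinning to 1000 UMIs 8 and 2 of 52, so fewer pairs were counted with the higher minimum and with thinning. The downward count was 8 with a mean of CPM over cells (of 115) and 2 with doublets kept (of 105). Over all cells 1 member was past 1.5-fold upward, 0 were past 2-fold and 2 past the ratio of 5 to 4. Of 282 recomputed values of the 22 results past the threshold, 277 kept their direction. The 5 that reversed were Irf1 in erythroid-like cells (-1.0 as a mean of CPM over cells, -2.0 thinned), Ifnar2 in basophil or mast cell-like cells (-0.035 thinned), Ifngr1 in macrophage-like cells (1.88 thinned) and Stat2 in conventional dendritic cell-like cells (-0.12 with interferon genes kept for clustering); the cause was not tested. Thinning leaves few molecules of each gene. Irf7 in mature neutrophil-like cells fell under 1.5-fold with interferon genes kept for clustering (0.57) and in the shared cluster (0.27). The shared cluster, the B cell-like cluster with neutrophil transcripts, the 5 highest cells and the shared barcodes were alternatives chosen after seeing the data. The depth of 1 library per group limits every comparison to these libraries.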
